A study of Oryza sativa with 2 samples.

Results

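A set of 123 probe sets read transcripts that were bright in green rice leaves and at least 3 times dimmer in leaves with yellow tips. They were chosen by the measured signals of both arrays, from 57258 rice probe sets, with 2 thresholds on the deposited linear values: a green signal of at least 500, and a green signal at least 3 times the yellow leaf tip signal. Probe sets of GRXC1, COPT1, NAS3, MT2C, PORA, CML29, PIP2-5 and TIP2-2 were left out. Of the 123 probe sets, 7 read a gene with a name, 60 read 56 genes known only by a locus number, and 56 had no single gene in the platform annotation. The differences below therefore describe the set and are not tested.

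The yellow sample came from F9Y and the green sample from F9G recombinant inbred lines (RILs), that is, lines fixed by inbreeding after a cross of parent lines. The yellow source is labelled mutant and the green source normal green, in a study of SA0420, an early senescing rice mutant. Titles speak of leaves and descriptions of leaf tips, both samples included, so the labels do not settle which part of the leaf was taken. The descriptions place both samples in the vegetative stage. Below, yellow tips and green leaves are only short names for the samples. They do not mean that tips were compared with whole leaves. Each group had 1 array and no replicate, and the sources used here do not say how many lines or plants stood behind each RNA. The differences therefore compare these arrays, and any difference between the lines that has no link to yellowing cannot be told apart from yellowing.

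Leaf yellowing is part of senescence, an ordered programme in which chloroplasts are dismantled, chlorophyll is broken down and nitrogen and metals are moved to younger organs. Transcripts of growth and photosynthesis usually decline during it, while those of breakdown and transport increase. Hormones set its pace, and cytokinins, which keep leaves green, are among the best known of them.

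Signals on both arrays had the same mean of 500.1 after the lowest and highest 2% of values were left out. The median log2 ratio, yellow leaf tip over green, was -0.13 over all rice probe sets and -0.03 over the 13332 with a green signal of at least 500. The 27 bioB, bioC, bioD and cre control probe sets had a median log2 ratio of 0.14, between -0.50 and 0.85. The Gapdh control had a ratio of 3′ to 5′ signal of 2.14 for yellow tips and 2.40 for green leaves, and the actin control had 2.48 for yellow tips and 2.37 for green leaves. The leaf mesophyll markers (5 genes, 13 probe sets) had summed signals of 262677 in yellow tips and 334171 in green leaves, with medians of 18833 and 22542, so both samples carried the defining transcripts of green leaf tissue. Vascular and secondary wall markers (6 probe sets) summed to 4363 in yellow tips and 3840 in green leaves. These sums hide opposite differences: SUT1 read 597 in yellow tips and 1512 in green leaves, and the others were higher in yellow tips. The epidermal marker LTPL1 read 13234 and 13353. Root markers (2 probe sets) summed to 769 and 1265, and seed and anther markers (14 probe sets) to 1394 and 2179. A GLUA-2 probe set, with 822 and 1186, made up most of the seed and anther sums, and 9 of the 14 were lower in yellow tips. None of these markers belonged to the 123 probe sets, no marker was listed at 0, and their part in the differences was not tested. In such bulk leaf samples, fewer cells of a type and less RNA per cell cannot be told apart.

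Before the 8 genes were left out, 134 of the 13332 probe sets bright in green met both thresholds, or 1.01%, and 0.234% of all rice probe sets. The mirror rule, a yellow leaf tip signal of at least 500 and at least 3 times the green one, was met by 285 of 13468 probe sets, or 2.12%. At this limit of 3 times, bright probe sets that were lower in yellow tips were thus fewer than bright ones that were higher. Without a fold limit, 6973 of the 13332 probe sets bright in green (52.3%) had a lower signal in yellow tips. The left-out genes accounted for 11 of the 134 probe sets, from 7 genes; no probe set of PIP2-5 met both thresholds.

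The transcripts were dimmer in yellow tips, and all but 1 still read above the bacterial controls named below. Whether each transcript was present was not tested. The median signal of the 123 probe sets was 283 in yellow tips and 1222 in green leaves, while the median of all rice probe sets was 80.5 and 97.5. On the yellow leaf tip array, 43 of the 123 still had a signal of at least 500, 16 had at least 1000, and 1 lay below the array median. That probe set, of LOC4331734, was also the 1 member at or below 56.9, the highest of the 42 bacterial control probe sets (dap, lys, phe, thr and trpn) on that array. By rank, which does not depend on how an array is scaled, the median member stood at the 69.8th percentile of the yellow leaf tip array and the 87.0th percentile of the green array. The same signals chose the members, so their lower signal and rank in yellow tips follow from the choice and give no support.

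Most of the differences were close to the threshold. Of the 123 probe sets, 65 were under 4 times lower, 58 were at least 4 times lower, 12 at least 8 times and 3 at least 16 times. The middle of the set ran from 3.30 to 4.71 times lower (quartiles), around a median of 3.86. Just inside the fold threshold lay LOC4338976 at 3.01, LOC4344589 at 3.03 and a probe set without a single gene at 3.03, and just outside it LOC4326146, LOC4345763 and LOC4345925, each at 2.99. Just inside the green threshold lay LOC4348108, LOC4339780 and LOC4330089 with green signals of 504, 508 and 510, and just outside it a probe set without a single gene with 499, LOC4345992 with 494 and LOC4345363 with 493. The share of bright probe sets in the set did not follow signal level: it was 1.12% for green signals of 500 to 1000, 0.713% from 1000 to 2000, 0.96% from 2000 to 5000, 0.625% from 5000 to 10000 and 1.04% above.

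By their families, the 7 named genes belong to hormone supply and transport, peptide signalling, metal uptake, lipid release, cell death control and transcription. The roles of these genes were not tested. Their member probe sets were 3.05 to 4.60 times lower in yellow tips, so none of them reached the far end of the set. LOGL10 is a member of the LOG family, whose enzymes turn cytokinin nucleotides into active cytokinins. It had a signal of 418 in yellow tips and 1275 in green leaves (3.05 times lower). PIN5A, also listed as PIN6, belongs to the PIN family of auxin transporters and had 1168 in yellow tips and 3668 in green leaves (3.14 times lower). PSK4 encodes a precursor of phytosulfokine, a small secreted peptide that promotes cell growth and division. It had 862 in yellow tips and 2691 in green leaves, 3.12 times lower.

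ZIP2, of a family of zinc and iron transporters, read 266 in yellow tips and 869 in green leaves, which is 3.27 times lower. The gene pla2-II encodes a secretory phospholipase A2, an enzyme that releases a fatty acid from membrane phospholipids. Its signal was 950 in yellow tips and 3600 in green leaves, 3.79 times lower. LOL4 encodes a zinc finger protein like LSD1, which restrains cell death in Arabidopsis; it read 179 and 728 in the same order, 4.07 times lower. The probe set of CDKE-1, a cyclin-dependent kinase of the class that works with the Mediator complex in transcription, read 113 in yellow tips and 522 in green leaves (4.60 times lower). A second, brighter probe set of CDKE-1 read 1643 and 1480, a log2 ratio of 0.15, so the gene itself cannot be called lower.

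The named members are set beside their families below. The families were chosen because a member belonged to them, and each holds 1 member, so by the thresholds that member is the lowest bright probe set and each count includes it. Of all probe sets bright in green, 3.84% were at least 2 times lower and 52.3% had any lower signal. In the LOG family, 6 genes had a bright probe set and 4 of these were at least 2 times lower. Beside LOGL10 these were LOGL3, with 798 in yellow tips and 2373 in green leaves (2.97 times lower, just short of the threshold), LOGL9, with 257 and 721 (2.81 times), and LOG itself, with 2743 and 5719 (2.09 times). LOGL1 and LOGL5 had log2 ratios of 0.20 and 0.15. The family was therefore split, with 4 bright genes well below equal signal and 2 slightly above it.

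All 6 ZIP genes with a bright probe set had lower signals in yellow tips, but ZIP2 alone was at least 2 times lower. ZIP5 followed at -0.92 (log2 ratio), and the probe set at the other end was that of ZIP6, with 1226 in yellow tips and 1491 in green leaves (-0.28). Among LSD1-like genes, the 3 bright probe sets of LSD1 had a smaller difference than LOL4, with log2 ratios of -1.38, -1.30 and -1.14. The names of all 3 mark possible cross-hybridization, and a dim LSD1 probe set had 1.89. LOL2 (LOC4352767) had -0.25, LOL3 had -0.13 and LOL1 had 0.37. PSK5, the other bright phytosulfokine gene, read 2291 in yellow tips and 1816 in green leaves (0.34), against -1.64 for PSK4. No other PIN gene and no other phospholipase A2 gene of this type was bright in green. Of the 11 bright probe sets of cyclin-dependent kinases, that of CDKE-1 was the 1 at least 2 times lower, and the next was CDKC-1 at -0.81.

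Among probe sets with a single gene, the largest differences belonged to genes known only by a locus number, to which the annotation used here gives no function. LOC9269452 had 643 in yellow tips and 11863 in green leaves, 18.5 times lower, and its rank on the array was 11832 in yellow tips and 686 in green leaves. LOC4340075 was read by 2 member probe sets. They had 977 and 974 in yellow tips and 20003 and 14328 in green leaves, a mean difference of 17.4 times. The brighter reading of the pair, 20.5 times lower, placed the transcript 9136th in yellow tips and 320th in green leaves among all rice probe sets. Both genes were among the brightest in green leaves and still lay above the 75th percentile of the yellow leaf tip array, which was 439.

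Behind them, 5 further genes were 9.69 to 13.8 times lower. LOC4343925 had 100 in yellow tips and 1389 in green leaves (13.8 times), and LOC4324560 had 304 and 3349 (11.0 times). LOC4342463 read 155 in yellow tips and 1532 in green leaves, 9.89 times lower. LOC4331734 read 55.5 and 571, 10.3 times lower, but its yellow leaf tip signal lay within the bacterial controls, and with a pseudocount of 22.6 its log2 ratio moved to -2.93, against -3.36 without. LOC4335408 was 9.69 times lower by a probe set whose name marks possible cross-hybridization, and its other 2 probe sets, both dim, had log2 ratios of -1.41 and -1.15.

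The rest of the 15 lowest locus-number genes lay between 5.67 and 7.77 times lower. LOC4330256 had 105 in yellow tips and 819 in green leaves (7.77 times), LOC4324872 had 1503 and 11587 (7.71 times), and LOC4345815 had 192 and 1357 (7.05 times). LOC4333009, with 3298 in yellow tips and 21622 in green leaves, was 6.56 times lower and ranked 3086th and 291st. LOC4324872 and LOC4333009 thus stayed well above the median of the yellow leaf tip array, whereas LOC4330256 came close to it. LOC4330464 read 1083 in yellow tips and 6754 in green leaves (6.24 times), and LOC4336228 read 106 and 609 (5.74 times). LOC4330113 had 2 member probe sets that differed by 0.18 on the log2 scale and averaged 5.70 times lower. LOC4331496, the 1 member gene annotated as a long non-coding RNA, had 491 in yellow tips and 2782 in green leaves, 5.67 times lower.

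Among the 10 locus-number genes with the highest green signal, 5 were not named above. LOC9268392 was the brightest of all 123 probe sets, with 10905 in yellow tips and 36250 in green leaves; it was 3.32 times lower, ranked 688th and 117th, and so stayed a bright transcript in yellow tips. LOC4343924 read 3180 in yellow tips and 15000 in green leaves (4.72 times lower). LOC4328185, LOC4346790 and LOC4335374 had green signals of 5619, 5512 and 4250 and were 4.55, 4.21 and 4.40 times lower. A second, dim probe set of LOC4346790 had a log2 ratio of -0.69, and the mean over both was -1.38, against -2.07 for the member. The remaining locus-number genes lay between 3.01 and 5.11 times lower.

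The 56 probe sets without a single gene held the largest difference of the set. The lowest of them read 211 in yellow tips and 5886 in green leaves, 27.9 times lower, and ranked 19334th and 1671st. The next had 203 in yellow tips and 2077 in green leaves (10.2 times), and the one after it 716 and 7127 (9.95 times). Their transcripts were bright in green leaves, and the annotation used here ties none of them to a single gene. Another read 1149 in yellow tips and 10057 in green leaves (8.75 times), and the 4 that followed had log2 ratios of -2.85, -2.74, -2.70 and -2.48. The brightest probe set of this kind read 3182 in yellow tips and 14827 in green leaves (4.66 times lower), and a further bright one read 2076 and 8745 (4.21 times).

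Probe sets without a single annotated gene made up 45.5% of the 123 (56), compared with 26% of the 285 probe sets of the mirror rule and 21.4% of the other 13209 bright probe sets. Probe sets whose names begin with OsAffx made up 24.4% of the members, 12.6% of the mirror set and 8.72% of the other bright probe sets. The excess thus stood in the direction of lower signal in yellow tips more than in the opposite one. However, the 11 left-out probe sets that met both thresholds each read a single gene. They were counted with the other bright probe sets, and none was left out of the mirror set. This unequal choice raised the share of members without a single gene. Names ending in _x_at, _s_at, _a_at or _f_at were counted together as marking possible cross-hybridization. They made up 27.6% of members, 28.6% of the other bright probe sets and 21.1% of the mirror set. Of the 63 member genes, 11.1% had a name, against 15.7% of other bright genes. All 8 left-out genes have names, and 7 of them had a probe set that met both thresholds. These 7 were counted among the other bright genes. Counting them as members would have added 7 names to the 7 of the members and reversed the order of these shares. The rule thus lowered the share of members with a name, and the shares cannot show that names were rarer among lowered transcripts. The annotated span of the member genes had a median of 2440 bp, near that of the mirror set (2530 bp, 203 genes) and shorter than that of the other bright genes (3758 bp, 9343 genes). These shares were computed after the set was known and were not tested.

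Repeated readings of the same gene were few, and they did not all agree. Of the 63 member genes, 45 had 1 probe set in all. Over the 887 genes read by several bright probe sets, the log2 ratios of 1 gene spread by 0.30 (pooled SD), and 3.04% of these genes had bright probe sets that differed by more than 1. Among 7 member genes with several bright probe sets, all bright readings met the thresholds in 4 and not in the other 3. The 4 were LOC4340075, LOC4330113, LOC4324276 (241 and 348 in yellow tips, 903 and 1138 in green leaves) and LOC4338611 (846 and 638 in yellow tips, 3145 and 1946 in green leaves). Only in LOC4324276 did these probe sets carry different target numbers in their names; in the others they were made for the same target and do not count as independent readings.

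The 3 genes with a contrary bright reading were CDKE-1, LOC4348108 and LOC4343067. LOC4348108 was 3.25 times lower by its member probe set (155 in yellow tips and 504 in green leaves), while its second, brighter probe set read 865 and 1019 (log2 ratio -0.24). LOC4343067 was 3.07 times lower by 1 probe set and had 512 and 694 by the other (-0.44). The member readings of all 3 genes lay close to the green threshold of 500. Another 17 probe sets of member genes were dim in green, with signals of 2.77 to 256. In all, 13 of the 20 further readings were below 0. The median log2 ratio of all rice probe sets was itself -0.13, so this count says little about the members. LOC4330464, LOC4345815 and LOC4343924 each had such a dim second reading (log2 ratios of 0.87, 0.45 and -0.32), and averaging it in brought them to -0.89, -1.18 and -1.28. Among the 123 probe sets, 14 shared a target number with another member, so the set held 116 distinct targets.

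Position along the chromosomes was not used to choose the set. In the gene order of the rice assembly ASM3414082v1, 6 of the 63 member genes (9.52%) had another member within 5 genes on the same chromosome, compared with 188 of 9342 other bright genes (2.01%) that had a member so close. The 6 genes formed 3 pairs. LOC4342463 and LOC4342464 are direct neighbours on chromosome 7; the second was named after its value was seen and read 216 in yellow tips and 733 in green leaves, 3.39 times lower. On the other side of LOC4342463, LOC4342462 was dim, with 11.7 in yellow tips and 47.5 in green leaves. The pair of LOC4343924 and LOC4343925, also on chromosome 7, had 1 unmeasured gene between its members. On chromosome 8, LOL4 and LOC4344589 (229 in yellow tips and 693 in green leaves, 3.03 times lower) were 3 places apart, and the genes between them had no probe set.

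Outside these pairs, the other bright genes around members had medians near that of all bright genes, and a larger share of them was at least 2 times lower. The 38 other bright genes directly beside a member had a median log2 ratio of -0.08, the 43 at 5 places had -0.06, and all 9343 other bright genes had 0.01. Of the 188 within 5 places of a member, 11 were at least 2 times lower (5.85%), against 224 of all 9343 (2.4%). The share was between 4.65% and 6.82% at each of the 5 distances, each with 2 or 3 such genes. Around the first pair, the bright genes LOC4342461 and LOC9270233 had log2 ratios of -0.09 and -0.43. Directly before the second pair, LOC4343923 had 0.87, and directly after it the dim genes LOC4343926 and LOC4343927 had 0.77 and 0.84. LOC4343929, 4 places after LOC4343925, read 4149 in yellow tips and 8387 in green leaves (-1.02). Beside the pair on chromosome 8, 60SP0 read 5968 in yellow tips and 4415 in green leaves (0.43). By chromosome, the share of bright genes that were members ran from 0.2% on chromosome 9 (1 gene) to 1.25% on chromosome 7 (9 genes). Whether neighbouring members have related sequences, which could let their probe sets read each other's RNA, was not tested.

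Pathway lists were matched by symbol, which locus-number genes and probe sets without a single gene cannot enter unless the gene table lists a further name for them. Across the 15 lists, 330 genes were measured and 2 member genes were among them, ZIP2 and CDKE-1. Here a gene is the mean log2 ratio over all its probe sets that passed the signal filter, members or not. Of all 14697 measured genes, 1.29% were at least 3 times lower in yellow tips and 2.33% were at least 3 times higher, with a median log2 ratio of 0.03. Metal transport and chelation had 5 of 36 genes at least 3 times lower (13.9%), 1 higher and a median of -0.36. Beside ZIP2 these were the left-out genes COPT1, MT2C and NAS3, and a dim ZIP1 gene (LOC4326394) with 47.4 in yellow tips and 154 in green leaves. The list therefore owed its count largely to genes already known to be low in these samples.

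Light harvesting and photosystem genes (5 measured) and carbon fixation and photorespiration genes (9 measured), the transcripts of the chloroplast machinery, had none at least 3 times lower, with medians of -0.28 and -0.54, and of 11 chlorophyll synthesis genes PORA alone was (median -0.24). Aquaporins had 2 of 20 lower (TIP2-2 and PIP2-5) and cytochromes P450 2 of 20 (CYP99A2 and CYP734A4). Glutaredoxins and thioredoxins had 1 of 20 and defence proteins 1 of 25, GRXC1 and GLP2. No gene was at least 3 times lower among 45 nutrient transporters, 59 transcription factors, 33 cell wall genes, 31 histone and cell division genes, 7 clock and flowering genes, 5 peroxidases and 4 lipid and wax genes. CDKE-1, of the cell division list, had -1.03 over both its probe sets, against -2.20 for its member probe set. At least 3 times higher were 3 nutrient transporters, 2 cell wall genes and 2 defence proteins (Cht4 and CH16). The lists of metal transport, glutaredoxins and thioredoxins, aquaporins, cytochromes P450, transcription factors, and lipid and wax each had 1 higher gene. Over all lists, 12 of 330 genes were at least 3 times lower (3.64%) and 13 at least 3 times higher (3.94%).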

How the data were processed

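Per the labels' protocols, RNA came from a Qiagen RNeasy kit, and biotinylated cRNA was made from about 10 µg. Each deposited value is the authors' linear signal intensity of a probe set on 1 array (57381 probe sets in all); which software and scaling made it, the sources used here do not say. The 123 control probe sets, a number that by coincidence equals that of the members, were left out. Ratios are yellow leaf tip over green on these values, with no pseudocount; a member gene's log2 ratio is the mean over its member probe sets, and in gene lists a gene's is the mean over all its kept probe sets. The platform annotation gave 22436 probe sets 1 gene, and all 17905 genes had an entry in RefSeq genes (assembly ASM3414082v1), used for names, biotypes, spans and gene order. For gene lists, probe sets with a mean signal of at least 86.0, the median, were kept.

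Nothing was tested, since each group had a single array, and this number of arrays limits the precision. The members and lists were chosen with earlier results of these data known. Named genes are all members with a name, the 15 lowest and 10 brightest locus-number genes, genes with several member probe sets, the 8 lowest and 5 brightest probe sets without a single gene, and probe sets at the thresholds; probe sets without a single gene are given by their values. List patterns and families were written after the annotation, and families after the values, had been seen. Python 3.11.15, pandas 2.3.3 and statsmodels 0.14.6 (loess, fraction 0.3) were used, and the scripts were tested on simulated data.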

Additional observations from a re-analysis of the deposited data

How the results depend on the processing

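Of the 123 probe sets, 118 met the thresholds after quantile normalization (127 in all), 116 after a loess of the ratio on signal (124), 92 after centring on the median of all rice probe sets and 102 with a pseudocount of 22.6. As a share of bright probe sets, 0.923% as reported, centring gave 0.691% and the pseudocount 0.766%. A green minimum of 300 gave 212 probe sets (1.25%) and of 1000 gave 71; a fold of 2 gave 501 (3.76%) and of 4 gave 58 (0.435%). The share was 0.766% without OsAffx probe sets, and 67 members had a single gene, a setting chosen after seeing the data. Of the genes in lists, 12 were at least 3 times lower, and 44 without the filter on dim probe sets. The share over all genes without the filter is not given here, so the 44 says nothing particular about the lists. None of the 39 named genes and probe sets turned sign. All 39 were chosen as at least 3 times lower, so their unchanged sign gives no support. Their log2 ratio moved by more than 0.30, the spread between probe sets, for 7 genes when all their probe sets were averaged and for LOC4331734 with the pseudocount; the cause was not tested. No paired analysis was possible because each group had 1 array. The planned promoter motif and protein comparisons, with their alternatives, were not run, since no sequences were used here. Signals near the bacterial controls limit the size of differences of dim genes.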
